A study of Mus musculus with 18 samples.

Results

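The mouse mitochondrial genome carries 37 genes, all with symbols that begin with mt-. They are 13 protein-coding genes, 2 ribosomal RNA (rRNA) genes and 22 transfer RNA (tRNA) genes. They were taken by symbol, and all 37 were found among the 55416 gene identifiers of the tables. They were measured by RNA-seq in 18 libraries of laser-captured optic nerve head, the site where retinal ganglion cell axons leave the eye. Of these, 8 libraries carry the label B6.EDA+/+ (here EDA-labelled) and 10 the label C57BL/6J control (control-labelled). The older mice, aged 22 months, gave 3 EDA-labelled libraries beside 5 controls, and the younger mice, aged 12 months, gave 5 of either kind. In EDA+/+ mice, as background, an altered fibronectin gene always splices in the exon for the extra domain A (EDA). No treatment is named for any group, and sex, litter and batch are not given. It is not stated that each library came from its own animal, so the p-values reflect library-to-library spread alone, part of which may be technical.

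Each mitochondrion holds many copies of a small circular genome. Most of its genes lie on one strand and are transcribed as a long precursor. From it the tRNAs are cut out and the rRNAs and mRNAs released. The mRNAs code for core subunits of respiratory complexes I, III and IV and of the ATP synthase (complex V), and all other subunits come from nuclear genes. The unmyelinated axons of the optic nerve head are rich in mitochondria, as their energy demand is high. Most mitochondrial mRNAs carry short poly(A) tails, so oligo(dT)-primed cDNA of the kind made here can include them.

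A nuclear block of mitochondrial sequence bears on 7 of the 13 mRNAs. In the annotation used for names (GENCODE M21, GRCm38), chromosome 1 holds 7 unprocessed pseudogenes side by side on the minus strand, at chr1:24611535-24616197 (4663 bases). They match mt-Co1, mt-Co2, mt-Atp6, mt-Co3, mt-Nd3, mt-Nd4l and mt-Nd4. RSEM, which made the deposited counts, divides reads that match several genes among them by likelihood, so the reads of such a pair are split by estimate. The pairs below are shown because so few letters separate a mitochondrial gene from its copy. Capitals mark the last bases of the mitochondrial gene that the annotated copy lacks (3′ ends, from GENCODE M21). The rest of mt-Co2, mt-Co3 and mt-Nd4l is 100% identical to its copy over 681, 783 and 294 bases.
mt-Co2: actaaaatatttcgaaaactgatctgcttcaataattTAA
Gm28661: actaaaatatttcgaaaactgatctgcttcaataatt
mt-Co3: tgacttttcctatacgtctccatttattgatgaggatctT
Gm28437: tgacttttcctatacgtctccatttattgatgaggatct
mt-Nd4l: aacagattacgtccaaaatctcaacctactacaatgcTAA
Gm10222: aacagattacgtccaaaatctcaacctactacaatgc

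mt-Nd3 and its copy Gm28438 differ in a single letter over 345 aligned bases, the substitution T3C, with positions counted from the first base of mt-Nd3. It is the capital in the first 23 bases below.
mt-Nd3: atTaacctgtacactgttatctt
Gm28438: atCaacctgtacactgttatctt

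The split put most reads of 5 genes under the nuclear copy. Over all libraries Gm28437 held 99.4% of the reads of the mt-Co3 pair, Gm28661 98.0% of the mt-Co2 pair, Gm10222 95.7% of the mt-Nd4l pair, Gm28438 88.9% of the mt-Nd3 pair and Gm28439 78.8% of the mt-Nd4 pair. Gm28439 covers 876 of the 1378 bases of mt-Nd4, with 100% identity. In contrast Gm29216 held 0.535% of the mt-Co1 pair, and Gm10925, which is 100% identical to mt-Atp6 over 678 bases, held no read in any library. mt-Co2 and mt-Nd3 were each listed at 0 in 7 libraries and mt-Nd4l in 6, although in no library did Gm28661 hold under 11215, Gm28438 under 172 or Gm10222 under 799 expected counts. mt-Co3 was listed at no more than 4 expected counts in 16 libraries and at 2830 and 722 in EDA-labelled 12-month replicates 2 and 3. Values for these 5 genes are therefore given as the sum of gene and copy unless stated otherwise. Another 8 nuclear copies, on chromosomes 2, 4, 11 and 13, held at most 28.2 expected counts in any library.

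**Figure D1:**
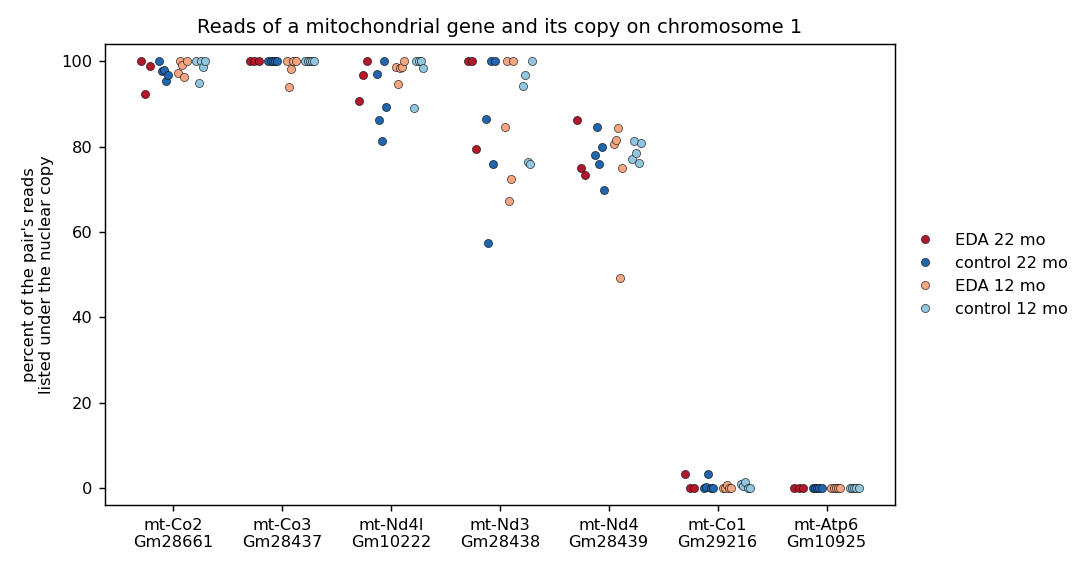
Percent of a pair's reads listed under the nuclear copy, for 7 pairs on chromosome 1; each point is a library, coloured by group. For mt-Co2 and mt-Co3 every library lies above 92%, for mt-Nd4 the range is 49.2% to 86.2%, and for mt-Co1 and mt-Atp6 no library is above 3.31%.

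The 37 genes together, without the copies, took 1.69% to 4.92% of the expected counts of a library, with a median of 2.90%. In the EDA-labelled libraries at 22 months the share was 1.70%, 2.39% and 1.69%. In the control-labelled libraries at 22 months it was 4.73%, 2.94%, 2.95%, 4.23% and 2.86%. At 22 months every EDA-labelled library was below every control-labelled one, with means of 1.93% ± 0.399 (SD, n = 3) and 3.54% ± 0.874 (SD, n = 5). In the EDA-labelled libraries at 12 months the share was 4.07%, 4.02%, 2.96%, 2.12% and 1.71%, and in the control-labelled ones 2.85%, 4.92%, 2.59%, 2.35% and 3.69%. These groups overlapped throughout, with means of 2.98% ± 1.08 (SD, n = 5) and 3.28% ± 1.05 (SD, n = 5). The gap at 22 months stayed free of overlap with the copies' reads added, with TPM in place of counts and without the rRNAs. Leaving out 1 library cannot bring groups that are apart to overlap. The difference of the means then ran from -1.85 to -1.32 percentage points. In bulk tissue, fewer mitochondria-rich cells and less mitochondrial RNA per cell cannot be told apart.

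**Figure D2:**
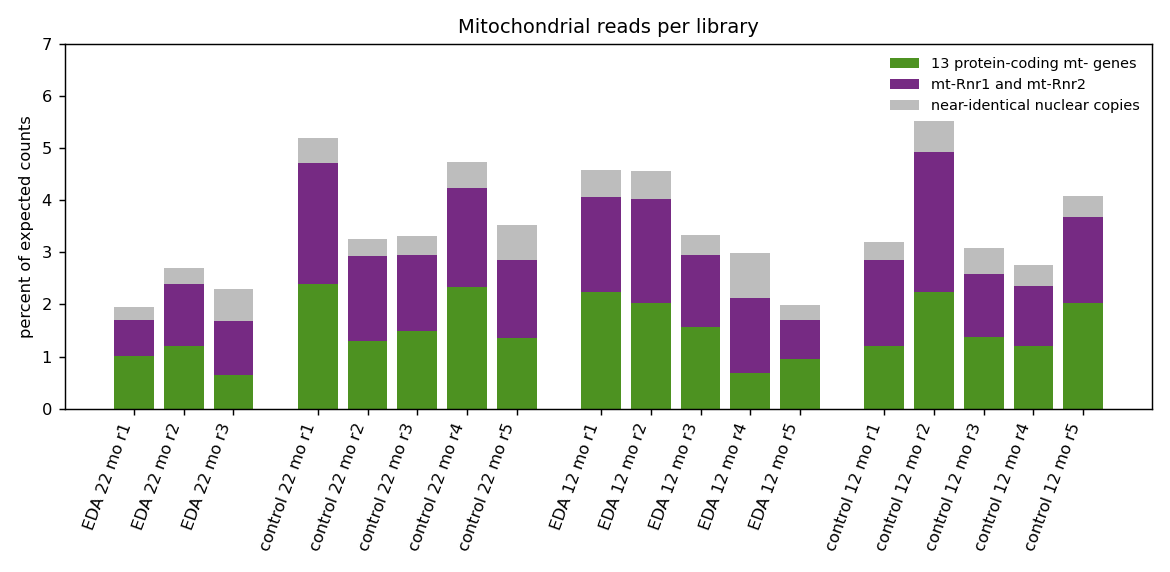
Percent of each library's expected counts on the protein-coding genes, the 2 rRNAs and the nuclear copies; bars are libraries, ordered by group and replicate. The 3 EDA-labelled libraries at 22 months have lower green and purple bars together than the 5 control-labelled ones beside them, while the 12-month groups overlap.

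Some facts about the libraries stand beside this difference. Library totals ran from 13097498 to 18488733 expected counts. A single gene identifier with no symbol in the annotation used, ENSMUSG00000119584, took 3.26% to 32.8% of all reads. Its part was 7.03%, 17.3% and 4.81% in the EDA-labelled libraries at 22 months and 28.2%, 32.8%, 18.9%, 17.7% and 10.7% in the control-labelled ones. The 9 skeletal muscle markers summed to 249.7, 5.64 and 13.2 CPM (reads relative to the library's total after TMM scaling, the unit of all levels below unless TPM is named) in the 22-month EDA-labelled libraries. In the control-labelled ones they summed to 0.175 to 1.76 CPM, and Ckm was at 0 in all but EDA-labelled replicate 1. The 8 photoreceptor markers reached 3216 CPM in control-labelled 22-month replicate 2, and the 8 astrocyte markers were high throughout, at 7240 CPM or more. The 8 oligodendrocyte markers summed to 822 to 3943 CPM in the EDA-labelled and 1032 to 29726 CPM in the control-labelled libraries at 22 months. All 8 had a log2 difference below 0 at that age (median -1.47), against 53.8% of all genes. At 12 months all 8 were above 0 (median 1.16), where 50.5% of all genes were below 0. They summed there to 949 to 27705 CPM in the EDA-labelled and 369.1 to 9726 CPM in the control-labelled libraries. The highest sums, 29726 and 27705 CPM, came from 1 library each, control-labelled 22-month replicate 3 and EDA-labelled 12-month replicate 3. Group medians went the other way, EDA-labelled 3440 and control-labelled 2296 CPM at 22 months, 2101 and 2654 CPM at 12 months. Xist exceeded the Y-linked genes in 1 of 3 EDA-labelled and 0 of 5 control-labelled libraries at 22 months, and in 2 of 5 of each at 12 months. The part of any of these in the mitochondrial values was not tested beyond the alternatives named below. The share of fibronectin transcripts with the 270-base EDA exon, as estimated by RSEM, did not follow the labels. This share rests on 4 isoforms with and 4 without the exon, among which shared reads are split by likelihood. The genotypes cannot be judged from it. It ran from 0% to 12.6% in the 3 EDA-labelled libraries and from 0% to 100% in the 5 control-labelled ones at 22 months, and from 0% to 58.5% and 0% to 96.2% at 12 months.

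Levels between genes were compared as TPM, which is scaled for length, with the copies of mt-Co2, mt-Co3, mt-Nd3 and mt-Nd4l added. By the median over 18 libraries, among the 15 protein and rRNA genes, mt-Rnr2 (11918 TPM) and mt-Nd2 (10753 TPM) were highest, followed by mt-Rnr1 (5341), mt-Nd1 (5088), mt-Co3 (4934) and mt-Co2 (3998). Then came mt-Nd4l (1727), mt-Atp6 (1505), mt-Co1 (1336), mt-Nd5 (1214), mt-Atp8 (995.5) and mt-Nd3 (565.6). mt-Cytb (331.8), mt-Nd6 (113.4) and mt-Nd4 (98.0) came last, but mt-Nd4 is given here without its shorter copy, which held most reads of the pair, so its place is uncertain. Neighbours in this order had overlapping ranges over the libraries: mt-Rnr2 spanned 5758 to 19023 TPM and mt-Nd2 974.8 to 18170 TPM. By median TPM mt-Nd2, a complex I mRNA, was thus close to the large rRNA and above mt-Nd1, its neighbour on the precursor. mt-Nd2 holds the longest run of A among the 13 mRNA genes (8 in a row), while mt-Nd6, the only mRNA of the other strand, is the poorest in A (22.2%) and has no run longer than 3.

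The 2 rRNAs, which form the small (mt-Rnr1, 12S) and large (mt-Rnr2, 16S) subunits of the mitochondrial ribosome, made up about as many reads as the 13 mRNAs, not counting the nuclear copies. mt-Rnr1 was at 1037, 2171 and 1696 CPM in the EDA-labelled libraries at 22 months and at 4732, 3680, 3109, 3610 and 3598 CPM in the control-labelled ones. These groups did not overlap, and the log2 difference was -1.20 ± 0.43 (SE), a ratio of 0.436. At 12 months mt-Rnr1 was at 3930, 3928, 2825, 4015 and 925 CPM in the EDA-labelled and at 2890, 5377, 2651, 1939 and 2863 CPM in the control-labelled libraries, with a log2 difference of -0.01 ± 0.35. mt-Rnr2 was at 5146, 8883 and 10509 CPM in the EDA-labelled and at 21705, 15762, 11282, 14224 and 12168 CPM in the control-labelled libraries at 22 months. It too did not overlap, by -0.88 ± 0.39 on the log2 scale, and at 12 months the log2 difference was -0.42 ± 0.33 with overlap. In edgeR's quasi-likelihood test, the Benjamini-Hochberg adjusted p over all 15118 genes tested was 1 for both genes at both ages.

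The same test called none of the mitochondrial genes at an adjusted p of 0.05 in any of 5 comparisons, and none of the 15118 genes tested (0% in each comparison). With the copies left out, 9 of the 14 protein and rRNA genes that passed the filter on low counts had at 22 months groups that did not overlap, all lower in the EDA-labelled libraries. Over all genes tested, 1.43% were lower and 1.32% higher without overlap. At an unadjusted p under 0.05, 6 of the 14 were lower (mt-Rnr1, mt-Rnr2, mt-Nd4, mt-Nd5, mt-Nd6 and mt-Cytb) and none higher, against 1.87% and 2.09% of all genes, and 14 of 14 had a log2 difference below 0, against 53.8% of all genes. The median log2 difference of the 14 was -1.02, beside -0.07 over all genes. The 14 genes share precursors and libraries, so these counts are not independent tests. With the reads of the copies added, 12 of 15 genes did not overlap, 14 of 15 were below 0 and the median was -1.02 again. DESeq2 and limma's voom with quality weights also called no mitochondrial gene at 22 months, and over all genes they called 39 and 1.

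Complex I takes electrons from NADH, and 7 of its core subunits are mitochondrially encoded. All 7 had a log2 difference below 0 at 22 months. mt-Nd1 was at 1772, 2634 and 2118 CPM in the EDA-labelled and 6532, 3468, 3371, 5754 and 3101 CPM in the control-labelled libraries, a log2 difference of -1.03 ± 0.50. mt-Nd2 was at 5194, 5191 and 2763 CPM against 13239, 8232, 6966, 10150 and 6926 CPM, a difference of -1.05 ± 0.56. For both genes the highest EDA-labelled library was below the lowest control-labelled one.

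mt-Nd4 with its copy was at 231.0, 310.3 and 154.6 CPM against 753.0, 445.8, 510.5, 828.1 and 389.3 CPM, without overlap and with a log2 difference of -1.34 ± 0.52. mt-Nd4 alone differed by -1.35 ± 0.44, and had the smallest unadjusted p of the members in edgeR (adjusted p = 1), though its groups overlapped. mt-Nd4l with its copy was at 72.2, 99.6 and 137.9 CPM against 266.0, 215.9, 166.2, 242.2 and 234.8 CPM (-1.12 ± 0.43). mt-Nd4l and mt-Nd4 overlap by 7 bases and come from a shared mRNA, and for each of them, with its copy, the 3 EDA-labelled libraries were the lowest at that age. mt-Nd3 with its copy was at 10.4, 40.6 and 38.8 CPM against 146.4, 100.7, 90.4, 58.6 and 97.2 CPM (-1.72 ± 0.69). mt-Nd3 by itself was listed at 0, 0 and 8.0 CPM in the EDA-labelled libraries. Its log2 difference without the copy, -2.54 ± 2.23, is therefore uncertain, though it is among the 14 counted above.

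mt-Nd5 was at 894, 1293 and 841 CPM in the EDA-labelled libraries and at 3080, 1451, 1634, 2520 and 1348 CPM in the control-labelled ones (-0.99 ± 0.40). The gap between the groups was narrow, since the highest EDA-labelled library was at 1293 CPM and the lowest control-labelled one at 1348 CPM. mt-Nd6 is the one mRNA on the strand opposite to the others. It was at 9.03, 19.5 and 20.5 CPM against 40.5, 24.3, 26.8, 39.9 and 33.4 CPM (-1.01 ± 0.44), again without overlap. At 12 months, with copies added, the log2 differences of these 7 genes ran from -1.17 (mt-Nd3) to 0.08 (mt-Nd4l), and the groups overlapped for every one.

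mt-Cytb codes for cytochrome b, the single mitochondrially encoded subunit of complex III. That complex passes electrons from ubiquinol to cytochrome c. mt-Cytb was at 92.8, 138.4 and 152.4 CPM in the EDA-labelled and at 415.4, 273.2, 223.6, 297.3 and 308.9 CPM in the control-labelled libraries at 22 months. The lowest control-labelled library was well above the highest EDA-labelled one, with a log2 difference of -1.25 ± 0.42. At 12 months it was at 268.7, 258.3, 180.1, 257.5 and 78.6 CPM against 161.7, 334.7, 161.4, 118.2 and 327.5 CPM, with full overlap and a difference of -0.08 ± 0.35.

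Complex IV, cytochrome c oxidase, hands electrons to oxygen, and its 3 mitochondrial subunits did not share a direction. mt-Co1 was at 686, 1258 and 1039 CPM in the EDA-labelled and at 2722, 1267, 1539, 2301 and 1408 CPM in the control-labelled libraries at 22 months (-0.89 ± 0.45). These 2 groups only just missed each other, at 1258 and 1267 CPM. mt-Co3 with Gm28437 was at 929, 1806 and 1413 CPM against 2739, 1791, 1879, 2481 and 2584 CPM (-0.73 ± 0.36), and EDA-labelled replicate 2 overlapped the lowest control. mt-Co2 with Gm28661 was at 1008, 837 and 5612 CPM against 1592, 1409, 1097, 1463 and 3966 CPM, a log2 difference of 0.38 ± 0.55. A single library of each group, replicates 3 and 5, stood far above the others. mt-Co2 alone, listed at 0, 65.3 and 70.2 CPM against 0, 34.2, 24.1, 69.6 and 130.3 CPM, gave -0.19 ± 2.15, so its sign depended on where the shared reads were counted.

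mt-Co3 alone did not pass the main filter. DESeq2, which tested it, called it in 3 comparisons: higher in EDA-labelled libraries at 12 months (log2 7.55, adjusted p = 1.48e-06), lower at 22 than at 12 months among EDA-labelled libraries (log2 -7.68, adjusted p = 9.17e-05) and in the interaction of label and age (log2 -7.70, adjusted p = 0.0245). These calls rest on 2 libraries, EDA-labelled 12-month replicates 2 and 3, with 190.3 and 37.7 CPM against 0.182 to 0.276 CPM in the other 16. In those 2 libraries Gm28437 held 93.8% and 98.1% of the pair's reads, against over 99.9% in the others. Counted with Gm28437, mt-Co3 differed by 0.22 ± 0.31 at 12 months (adjusted p = 1, edgeR).

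mt-Atp6 and mt-Atp8 code for subunits of the membrane part of the ATP synthase and lie on a shared mRNA. Their reading frames overlap by 43 bases, in capitals below with 10 bases on either side (GENCODE M21 and GRCm38, plus strand of the mitochondrial genome, 7917 to 7979), so a read within it cannot be given to one of them.
mt-Atp8 and mt-Atp6: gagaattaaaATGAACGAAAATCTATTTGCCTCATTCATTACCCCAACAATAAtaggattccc

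mt-Atp6 was at 269.1, 412.6 and 464.9 CPM in the EDA-labelled and at 946.0, 486.6, 532.9, 741.2 and 641.7 CPM in the control-labelled libraries at 22 months, without overlap (-0.81 ± 0.43). mt-Atp8, with a length of 204 bases, was at 29.1, 30.8 and 69.2 CPM against 87.0, 56.7, 44.8, 74.1 and 64.4 CPM and overlapped (-0.60 ± 0.51). EDA-labelled replicate 3 was the one that reached into the control range, and the difference was -1.12 without it. It was -0.39 without EDA-labelled replicate 1. Between 12 and 22 months, mt-Atp6 of the EDA-labelled libraries had a log2 difference of -1.08 ± 0.44 (adjusted p = 0.961, edgeR).

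**Figure D3:**
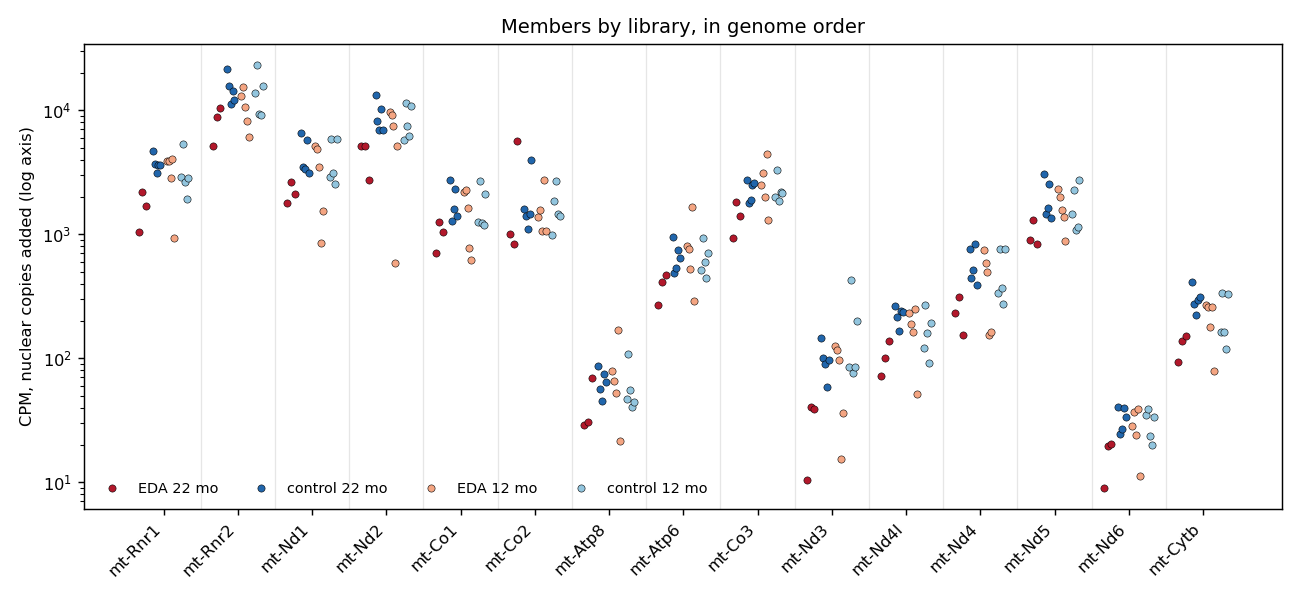
CPM of the 13 protein-coding and 2 rRNA genes in each library on a log axis, with the reads of nuclear copies added; genes are in genome order and points are coloured by group. The 22-month EDA-labelled points (dark red) lie below the 22-month control-labelled ones (dark blue) for 12 of 15 genes, and one 12-month EDA-labelled library lies far below the rest at mt-Nd2.

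The 22 tRNAs are shorter than a sequencing read, and together they took 0.00100% to 0.00450% of a library's counts. mt-Tm, the tRNA for methionine, had the highest median (70 expected counts, range 19 to 137). Its whole gene of 69 bases, printed to show how little sequence a 150-base read can match, is as follows (GENCODE M21).
mt-Tm: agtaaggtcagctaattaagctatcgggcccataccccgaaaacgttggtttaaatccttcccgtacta

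The filter on low counts kept 12 tRNAs: mt-Tf, mt-Tv, mt-Tl1, mt-Ti, mt-Tq, mt-Tm, mt-Tc, mt-Ty, mt-Ts1, mt-Td, mt-Tg and mt-Te. Median levels over the libraries ran from 0.177 CPM (mt-Te) to 4.13 CPM (mt-Tm). The 10 others had medians of 0 to 0.254 CPM, and 7 of them were at 0 in at least 10 of 18 libraries. At 22 months 7 of the 12 tRNAs had a difference above 0 and 5 below (53.8% of all genes were below), with a median of 0.23. mt-Tg alone of the 12 did not overlap, where 1.43% of all genes were lower and 1.32% higher without overlap. It was at 0.606, 0.894 and 0.615 CPM in the EDA-labelled and 1.65, 2.80, 1.44, 1.97 and 1.56 CPM in the control-labelled libraries (-1.41 ± 1.08). mt-Td stood at 7.12 CPM (81 expected counts) in EDA-labelled 22-month replicate 3, while the 17 remaining libraries had 0.0640 to 2.45 CPM. The same library also had the most mt-Tq and mt-Tm.

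At 12 months the 14 tested protein and rRNA genes, copies left out, had a median log2 difference of -0.085 (EDA-labelled minus control-labelled), with 10 below (50.5% of all genes) and 4 above 0. None was without overlap, beside 0.423% of all genes lower and 0.84% higher, and none had an unadjusted p under 0.05 (1.59% of all genes lower and 2.96% higher). The sign of this small median turned without EDA-labelled replicate 5 (0.10) or control-labelled replicate 2 (0.03) and with the share of ENSMUSG00000119584 in the fit (0.13). The age comparison among control-labelled libraries gave small differences of the opposite sign: all 14 had a difference above 0 (48.4% of all genes were below 0), with a median of 0.18 beside 0.02 over all genes. That median was 0.03, 0.06, 0.10 and 0.11 without 22-month replicate 1, 12-month replicates 4 and 3 and 22-month replicate 4, and 0.42 without 12-month replicate 2. All groups overlapped there (0.205% of all genes lower and 0.351% higher without overlap), and none of the 14 had an unadjusted p under 0.05 (1.37% of all genes lower and 2.14% higher). With copies added 14 of 15 were above 0 and mt-Nd3 was at -0.83 ± 0.56. The age comparison shares its control-labelled 22-month libraries with the comparison of labels at that age.

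Among EDA-labelled libraries 13 of the 14 had a difference below 0 between 12 and 22 months (53% of all genes), with a median of -0.70 beside -0.06 over all genes. All 14 overlapped, against 2.24% of all genes that were lower and 1.76% higher without overlap. mt-Rnr1 (-0.94 ± 0.42, adjusted p = 0.961, edgeR) and mt-Atp6 had unadjusted p-values under 0.05 (2.38% of all genes lower and 2.6% higher). With copies added mt-Co2 was the only one of 15 above 0, at 0.67 ± 0.54. EDA-labelled 12-month replicates 4 and 5, at 2.12% and 1.71% of reads, lay within the 22-month range, and the other 3 lay above it. The interaction, the difference at 22 months less that at 12 months, was below 0 for 14 of 14 genes (52.8% of all genes) with a median of -0.94. mt-Rnr1 (-1.19 ± 0.55) and mt-Cytb (-1.17 ± 0.54) had an unadjusted p under 0.05 (2.48% of all genes lower and 1.54% higher), and the adjusted p was 0.9999 for both. The difference between the labels was thus not shown to differ between the ages.

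**Figure D4:**
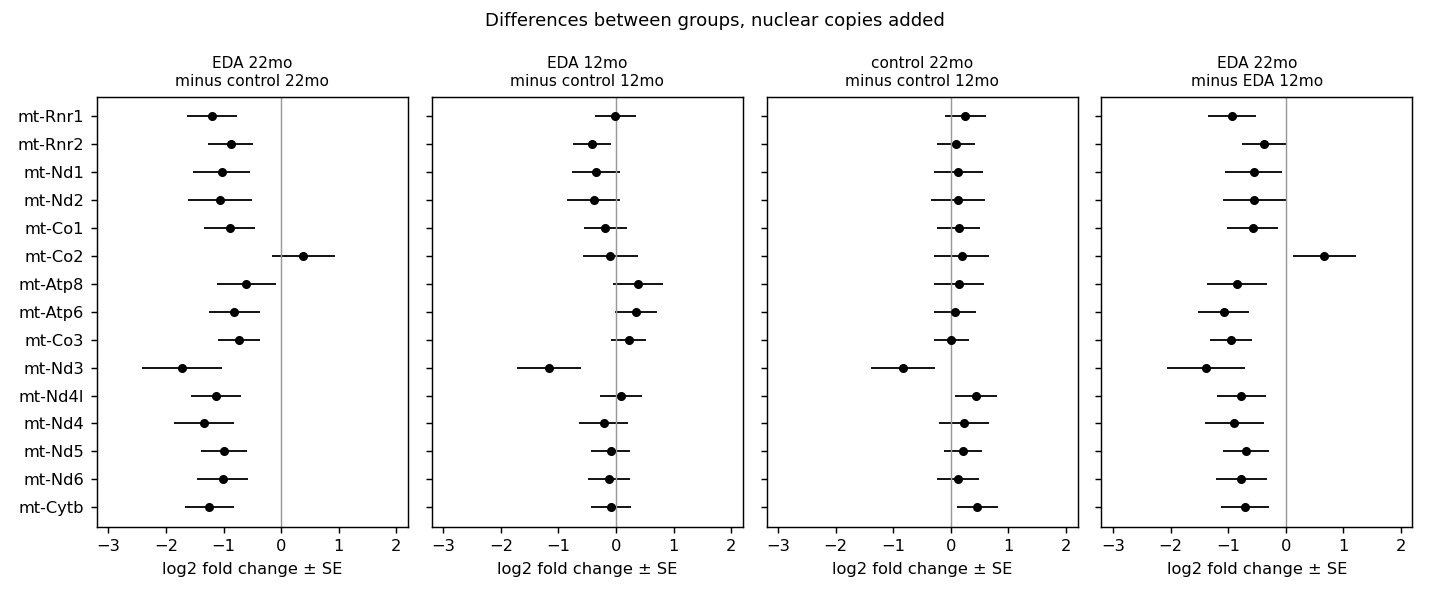
Log2 fold change and standard error of the 15 genes in 4 comparisons, nuclear copies added (edgeR). In the first panel 14 of 15 points lie left of 0 and mt-Co2 right of it; in the panels for 12 months and for age among control-labelled libraries all points but mt-Nd3 lie within 0.5 of 0; no point passed at an adjusted p of 0.05.

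Ratios within a library do not depend on its total. The log2 ratio of rRNA to mRNA reads without the copies' reads had means of 0.05 ± 0.61 (SD, n = 3) and 0.03 ± 0.24 (SD, n = 5) in the EDA-labelled and control-labelled libraries at 22 months. The difference was 0.02 (exact two-sided permutation p = 0.929). With the copies added the means were -0.50 ± 0.32 and -0.33 ± 0.22, a difference of the other sign, -0.17 (exact permutation p = 0.411). The log2 ratio of complex IV to complex I reads without the copies, which leaves out nearly all reads of the mt-Co2 and mt-Co3 pairs, was -2.90 ± 0.58 against -3.06 ± 0.18 (exact permutation p = 0.607). With the copies added it was -0.84 ± 1.09 against -1.43 ± 0.47, a difference of 0.59 (exact permutation p = 0.321). The log2 ratio of mt-Nd6 to the 12 heavy-strand mRNAs was -9.21 ± 0.72 against -9.12 ± 0.26 without the copies (exact permutation p = 0.839) and -9.76 ± 0.45 against -9.48 ± 0.15 with them, a difference of -0.28 (exact permutation p = 0.268). In all, 3 ratios were tested in 4 comparisons, and the 12 adjusted p-values were all 1 without the copies and all 0.944 with them. The smallest p these tests allow is 0.0179 for 3 libraries against 5 and 0.0079 for 5 against 5.

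EDA-labelled 12-month replicate 4 had the composition furthest from the rest. mt-Nd2 was at 584 CPM there and at 2763 to 13239 CPM in the 17 others, and mt-Nd1 was at 842 CPM against 1547 to 6532 CPM. mt-Atp6 was highest of all, at 1665 CPM against 269.1 to 946.0 CPM. The ratio of mt-Nd2 to mt-Atp6 reads was 0.351, against 5.94 to 19.3 elsewhere. With copies added, complex IV made up 59.7% of its mitochondrial mRNA reads, complex V 13.8% and complex I 24.5%. mt-Cytb, in contrast, lay within the range of its group, and mt-Rnr1 (4015 CPM) just above it. In the same library astrocyte markers summed to 33051 CPM, against 7240 to 14861 CPM elsewhere, Gfap reached 29487 CPM, and ENSMUSG00000119584 was at its lowest share, 3.26%. The part of these in the composition was not tested.

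EDA-labelled 22-month replicate 3 was the next furthest. Complex IV made up 54.4% of its mitochondrial mRNA reads and complex I 41%, with 5612 CPM on mt-Co2 and Gm28661. Fewer genes reached 10 reads in it than in any other library (9703 against 10376 to 13048). Control-labelled 22-month replicate 5 had 37.7% on complex IV, with 3966 CPM on the mt-Co2 pair. In the remaining 15 libraries complex IV made up 20.7% to 30.5% and complex I 65.3% to 75.4%. The mt-Co2 pair also reached 2663 CPM in control-labelled 12-month replicate 3 and 2734 CPM in EDA-labelled 12-month replicate 4, and was at 837 to 1871 CPM in the 14 libraries not named.

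**Figure D5:**
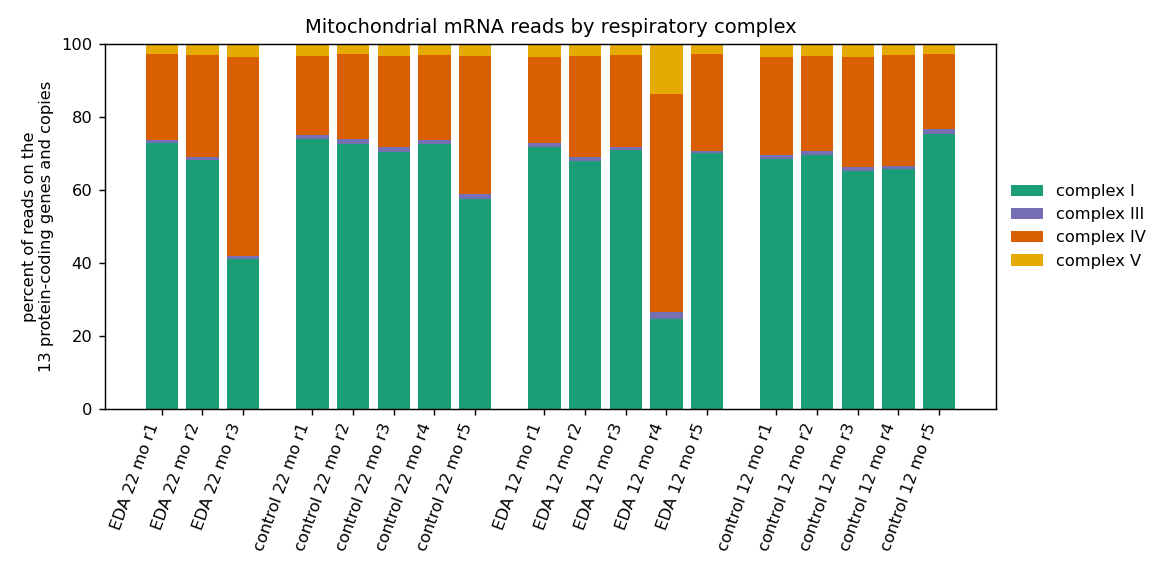
Percent of mitochondrial mRNA reads by respiratory complex in each library, nuclear copies added; bars are libraries. EDA-labelled 22-month replicate 3 (54.4%), control-labelled 22-month replicate 5 (37.7%) and EDA-labelled 12-month replicate 4 (59.7%) have the largest complex IV parts.

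Across the 18 libraries the levels of the 15 genes ran in parallel to different degrees. Pearson's r of log2 CPM with copies added had a median of 0.69 over pairs of genes and ran from -0.34 to 0.96. These values share library, depth and precursor and are given as a description. The median r of a gene with the others was highest for mt-Rnr2 (0.79) and mt-Rnr1 (0.79) and lowest for mt-Co2 (0.15) and mt-Nd2 (0.26). Nuclear genes were also compared with the mean log2 CPM of the 15 genes, here without the copies' reads. That mean therefore depended in part on how RSEM split the shared reads. Among 12778 nuclear genes, r with it over the 18 libraries was highest for Prrg4 (r = 0.757), Prc1 (0.742), Zfp292 (0.729), Ap1g1 (0.727) and Tmem43 (0.726). Prrg4 and Prc1 were low, with medians of 3.64 and 1.48 CPM.

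The nuclear genes that supply the rest of the respiratory chain had median differences on either side of 0 at 22 months, and the gap to the mitochondrial genes was not tested. Nuclear subunits of complex I had a median log2 difference of 0.03 (35 tested of 39 listed, 18 above and 17 below 0), those of complex III 0.55 (8 of 9), those of complex IV -0.35 (11 of 12) and those of complex V 0.22 (17 of 17), beside -0.07 over all genes. The 4 subunits of complex II, which has no mitochondrially encoded part, had a median of 0.35. Cox6a1, a complex IV subunit, had a log2 difference of 1.38 ± 0.47 (adjusted p = 1, edgeR), and Ndufa6 of complex I one of 5.29 ± 2.16 (adjusted p = 1, edgeR). No gene of any of these lists passed an adjusted p of 0.05.

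Lists of nuclear genes that make or maintain mitochondrial RNA had values of either sign. Mitochondrial transcription (9 of 10 tested) had a median of -0.18 at 22 months. Of its genes, Tfam, which packages mitochondrial DNA and starts transcription, differed by 2.67 ± 2.14 and Polrmt, the mitochondrial RNA polymerase, by -1.62 ± 1.44. Replication and maintenance of mitochondrial DNA (10 of 13) had a median of 0.47, and RNA processing and stability (20 of 23) one of 0.08. In the last list Lrpprc, which stabilises mitochondrial mRNAs, differed by -1.16 ± 1.12. Proteins of the mitochondrial ribosome (68 of 78) had a median of 0.05, and 2 of the 68 were above and 2 below 0 at an unadjusted p under 0.05, near the 2.09% and 1.87% of all genes. Mitochondrial tRNA synthetases (14 of 17) had a median of -0.03, mitophagy genes (9 of 11) one of -0.03, and Pink1, a kinase that marks damaged mitochondria, differed by 1.40 ± 0.50 (adjusted p = 1, edgeR).

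The lower mitochondrial level at 22 months depended in part on how ENSMUSG00000119584 was treated. With its share as a covariate, the differences of mt-Nd2 (0.015 ± 0.49), mt-Nd1 (-0.07 ± 0.42), mt-Co1 (-0.23 ± 0.40), mt-Rnr2 (-0.37 ± 0.37) and mt-Nd5 (-0.48 ± 0.36) moved toward 0. Those of mt-Rnr1 (-1.0 ± 0.45), mt-Cytb (-1.02 ± 0.46) and mt-Nd4 without its copy (-0.99 ± 0.43) moved less, and that of mt-Atp6 (-1.03 ± 0.47) became more negative. The copy Gm28439, which held most reads of the mt-Nd4 pair, moved from -1.33 ± 0.58 in the main fit to -0.20 ± 0.46. The median of the 14 genes, copies left out, was -0.98 beside 0.06 over all genes, and 13 of 14 were below 0. Wide errors went with mt-Nd3 (-2.22 ± 4.06), mt-Nd4l (-1.91 ± 2.16) and mt-Co2 (-0.65 ± 2.32), each without its copy. Their copies Gm28438, Gm10222 and Gm28661 were at -0.50 ± 0.67, -1.04 ± 0.51 and -0.69 ± 0.53. With Xist less the Y-linked genes as a covariate the median of the 14 genes was -0.89, beside -0.07 over all genes.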

How the data were processed

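RNA from 18 laser-captured mouse optic nerve head libraries was turned into cDNA with a low-input kit and sequenced as 150-base pairs, per the labels' protocols. Per the labels, the authors aligned with STAR and quantified with RSEM to give expected counts and TPM. The build GRCm39 is named per the submitters' processing notes; for program versions and annotation, none is given in the sources used. The deposited expected counts are estimates, 3.59% of them not whole, and were rounded. The deposited TPM values are the authors' and were used for levels between genes and for the fibronectin exon share.

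Symbols (52083 of 55416 identifiers), lengths and sequences came from GENCODE M21 (GRCm38). Nuclear copies were transcripts off the mitochondrial genome aligned by blastn 2.17.0 over at least 200 bases at 90% identity or more, which gave 15 copies of 11 genes. Counts were filtered with filterByExpr (15118 genes, 26 of the 37 mitochondrial genes), scaled by TMM and fitted with edgeR 4.0.16 (quasi-likelihood, robust, 4 group means over all 18 libraries, two-sided, Benjamini-Hochberg). Lower or higher without overlap means that the CPM ranges of the 2 groups are apart. Alternatives used DESeq2 1.42.0, limma 3.58.1, other scalings, filters and covariates, the copies added, and each library left out. For ratios, exact permutation tests (two-sided) were run. The fit was tested on simulated data. Depth was 13097498 to 18488733 expected counts, and counting error is small beside the spread between libraries for all but the tRNAs. All 15 protein and rRNA genes are named, of tRNAs those past the filter, and of other lists at most the 3 with the smallest p. The members and lists were chosen with earlier results of these data known.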

Additional observations from a re-analysis of the deposited data

Results flagged for a closer look

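In groups of 5 libraries the highest or lowest value was compared with the rest by Dixon's ratio of gap to range. Of 81 such groups 14 held a value that stood apart. Chance flags about 1 in 20 groups if values are independent and normally distributed. The measures here share reads and some hold zeros, so the count cannot be set against that rate. Control-labelled 12-month replicate 2 stood above its group for mt-Rnr1 (5377 CPM, others 1939 to 2890), mt-Co2 alone (97.2 CPM, others 0 to 21.0), mt-Atp8 (108.7 CPM, others 40.1 to 55.5) and Gm28437, the copy of mt-Co3 (3269 CPM, others 1848 to 2171). It was also the library with the highest mitochondrial share of the series.

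EDA-labelled 12-month replicate 2 stood apart for mt-Co3 alone (190.3 CPM, others 0.189 to 37.7), and control-labelled 12-month replicate 1 for mt-Nd4l alone (13.4 CPM, others 0 to 2.97). Both genes share nearly all of their sequence with a nuclear copy. Control-labelled 12-month replicate 1 also had a high log2 ratio of mt-Nd6 to the heavy-strand mRNAs (without copies -8.44, others -9.40 to -9.19).

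Control-labelled 22-month replicate 5 stood apart for Gm28661, the copy of mt-Co2 (3833 CPM, others 1073 to 1591). The copies held 33.2% of the reads of protein-coding genes and copies there (others 16.3% to 19.9%), and complex IV with copies added made up 37.7% of mRNA reads (others 21.7% to 25.2%). EDA-labelled 12-month replicate 4 stood apart in 4 measures. The copies held 55.6% (others 18.8% to 22.9%), complex IV with copies added made up 59.7% (others 23.7% to 27.7%), the log2 ratio of rRNA to mRNA without copies was 1.04 (others -0.31 to -0.03) and that of mt-Nd6 to the heavy-strand mRNAs, again without copies, was -7.24 (others -9.60 to -9.07). EDA-labelled 22-month replicate 3, with 48.8% on the copies, belongs to a group of 3, which is too small for this rule.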

How the results depend on the processing

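The count of mitochondrial genes called was 0 in each comparison and setting except under DESeq2, where it was 1 (mt-Co3) at 12 months, between ages among EDA-labelled libraries and in the interaction. DESeq2 called 39 genes of all at 22 months, 32 at 12 months, 31 and 49 between ages (control-labelled, EDA-labelled) and 42 in the interaction, and edgeR 0. At 22 months the median log2 difference of the 26 tested members was -0.84, and -0.35 when the ENSMUSG00000119584 share was a covariate (-0.99 to -0.62 without 1 library). mt-Nd2 turned to 0.015 with that covariate and mt-Co2 to 0.38 with copies added. Without its copy, mt-Nd4l was at -2.47 ± 2.01 in the main fit and turned to 1.23 with limma. mt-Co2 without its copy ran from -0.66 to 0.50 when 1 library was left out. The log2 ratio of rRNA to mRNA changed sign at 22 months with TPM (-0.012) and copies added (-0.17), at 12 months likewise (-0.0067 and -0.10) and between ages among EDA-labelled libraries with TPM (0.021). That of complex IV to complex I changed sign with copies added between ages, at -0.059 for control-labelled and 0.061 for EDA-labelled libraries. With 1 library and the copies left out, rRNA to mRNA ran from -0.30 to 0.31 at 22 months, -0.22 to 0.14 at 12 months, -0.075 to 0.11 and -0.32 to 0.29 between ages (control-labelled, EDA-labelled). Complex IV to I ran from -0.11 to 0.46, 0.03 to 0.50, -0.019 to 0.11 and -0.37 to 0.21 in the same order, and mt-Nd6 to heavy strand from -0.43 to 0.28, -0.26 to 0.33, -0.12 to 0.14 and -0.62 to 0.15. The difference in mitochondrial share at 22 months, -1.62 percentage points, was -2.43 without ENSMUSG00000119584 in the total, -2.49 as a share of TPM, -0.82 without rRNAs and -1.85 to -1.32 without 1 library. Between ages among EDA-labelled libraries it was -1.05, and -2.07 as a share of TPM. At 12 months it was -0.30, 0.106 without control-labelled replicate 2 and 0.013 without EDA-labelled replicate 5, and between ages among control-labelled libraries it was 0.262, and -0.034 without 22-month replicate 1. The cause of these changes was not tested. No paired analysis was possible because the labels give no pairing and no replicate numbers, and those used here follow accession order. Each title does carry a number of its own, whose meaning is not stated. These title numbers run in a separate block for each group. Depth limits the tRNAs, at 0 to 150 reads each.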
